A study of Homo sapiens with 4 samples.

Results

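The SLC25 family of mitochondrial carriers was followed in SCC-9 cells, an established line of human tongue squamous carcinoma, after transfection of a microRNA. Members were the genes named SLC25A followed by digits in the platform annotation, each read through the brightest of its probe sets with exactly 1 gene symbol over the 4 arrays, mimic against miR-NC. The rule found 46 genes with 117 probe sets, of 18132 genes with 44988 such probe sets in all. The 2 groups were SCC-9 cells carrying a miR-585-5p mimic (2 arrays) and SCC-9 cells carrying the control small RNA miR-NC (2 arrays), and the labels state no other difference between them. Transfection was at 30 nM, 24 hours after seeding, and RNA was collected 36 hours later and read on PrimeView arrays. The comparison asks how transcript levels in these cells respond to added miR-585-5p. The cells are a single line, and nothing in the labels ties the arrays to separate cultures: the p-values therefore cover the spread among these 4 samples alone, and that spread may be technical.

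SLC25 proteins sit mostly in the inner mitochondrial membrane and carry nucleotides, phosphate, carboxylates, amino acids and cofactors between the cytosol and the matrix, so that they connect glycolysis, the citric acid cycle, respiration, heme synthesis and lipid synthesis. They are encoded in the nucleus, made in the cytosol and inserted by the TIM22 import machinery. In epithelial tumour cells they supply the matrix with phosphate, ADP and cofactors and the cytosol with citrate and aspartate for growth.

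The supplied microRNA is shown because it is the only agent that differs by design between the groups. Its mature sequence in RefSeq (GRCh38.p14, chr5:169263649-169263670, minus strand) is printed with the seed, bases 2 to 8, in capitals.
hsa-miR-585-5p: cUAGCACAcagauacgcccaga
No transcript sequences were used here, so seed matches in carrier messages were not searched.

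Of the 46 carriers, 39 exceeded the 20 control probe sets with no human target on all 4 arrays, 2 on some arrays and 5 on none. A filter on dim genes (a mean intensity above 12.0) left 42 carriers among 14122 genes tested. SLC25A2, SLC25A18, SLC25A31 and SLC25A41 were not tested, with intensities of 3.13 to 13.6, all at the level of the control probe sets. SLC25A48 was tested but did not exceed those controls on any array.

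The carriers moved in both directions. At a limma adjusted p under 0.05, 28 of the 42 tested carriers changed (66.7%), where 55.0% of all genes tested did. Of these, 15 were higher in the mimic group (35.7% of the carriers, against 28.1% of all genes) and 13 lower (13 of 42, against 26.9% of all genes). The median log2 change of the carriers was 0.01, and that of all genes tested was -0.06. Changes of at least 0.5 on the log2 scale among genes past the threshold were found for 14 carriers (33.3%, against 27.8% of all genes), 9 higher and 5 lower. The 2 mimic arrays lay wholly above or below the 2 miR-NC arrays for 35 carriers (83.3%), as they did for 79.4% of all genes tested. The family as a whole was not tested against other genes, and the results below are those of single carriers, grouped by role. In RNA from a whole culture, fewer cells of a type and less RNA per cell cannot be told apart.

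**Figure D1:**
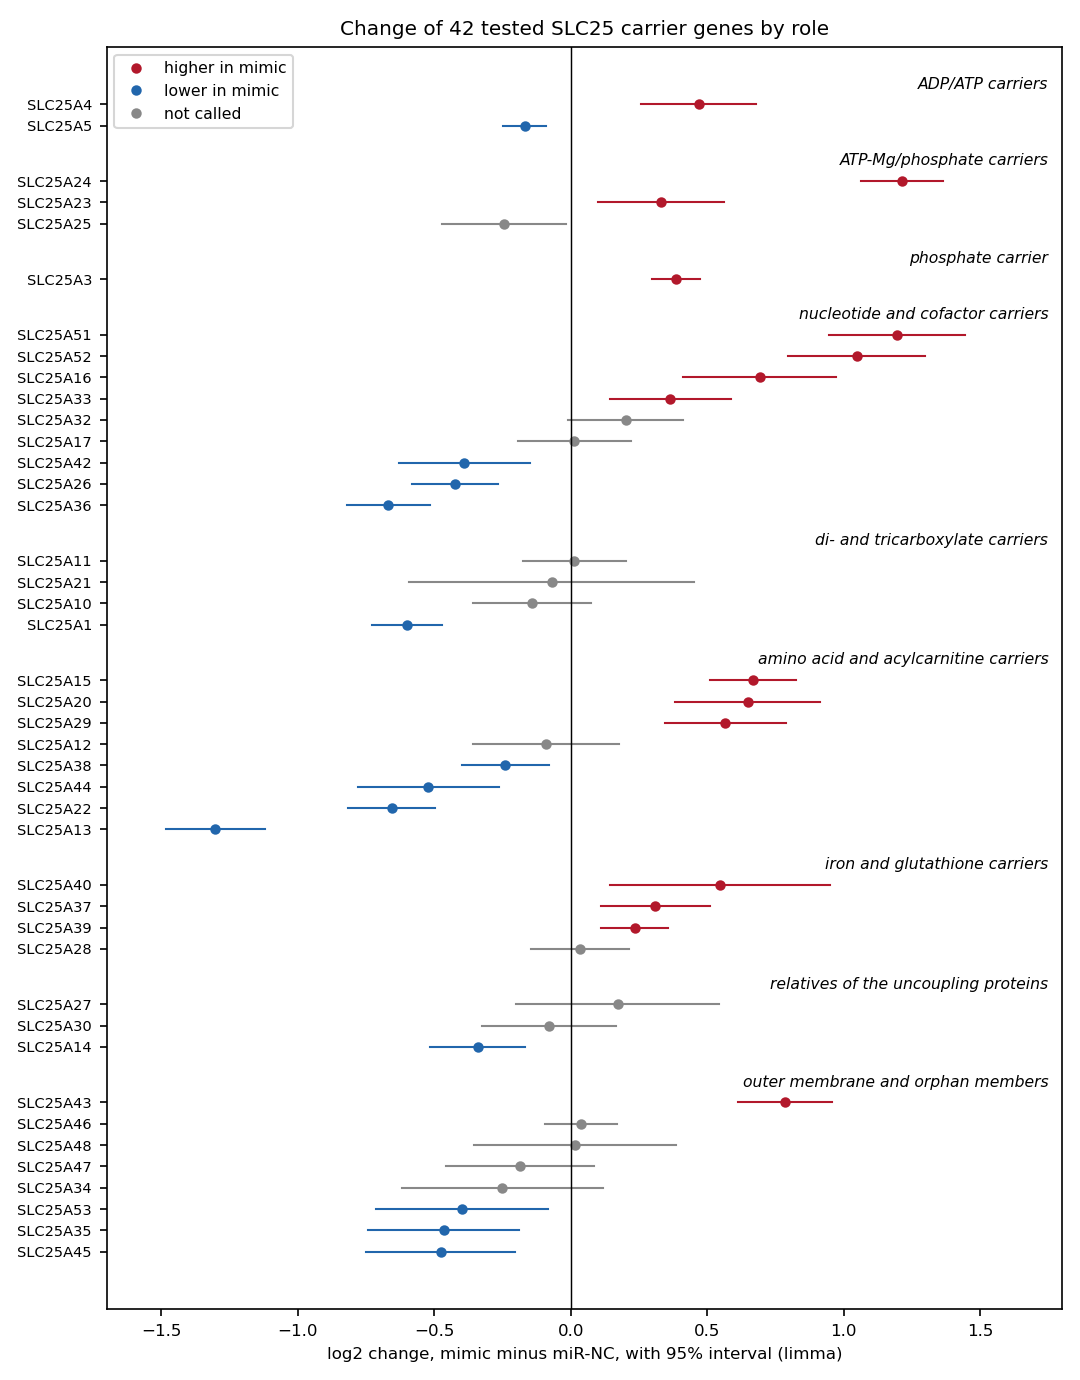
The log2 change (mimic minus miR-NC) of each of the 42 tested SLC25 genes is plotted as a point with its 95% interval from limma, grouped by role, with colours for the call at an adjusted p under 0.05. The 15 genes called higher and the 13 called lower are spread over the roles, from SLC25A24 at 1.22 to SLC25A13 at -1.30.

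Scale and sample facts that touch these values are few. Across probe sets the mimic arrays correlated with each other at 0.998, the miR-NC arrays at 0.997, and mimic with miR-NC arrays at 0.978 to 0.982. Bacterial poly(A) RNAs, spiked in ahead of labelling, were on average 0.34 higher in the mimic group (log2), from 0.08 for thr to 0.48 for phe. When the arrays were set to these spikes, every log2 change fell by the same amount, and the median of all genes moved to -0.40. On that scale 5 carriers were higher and 23 lower, against 15 and 13 on the deposited scale, and of all genes 1573 were higher and 7818 lower, against 3966 and 3802. Of the 14 carriers not called on the deposited scale, 10 passed as lower with the spikes. They were SLC25A10 (-0.48), SLC25A11 (-0.33), SLC25A12 (-0.43), SLC25A17 (-0.33), SLC25A25 (-0.58), SLC25A28 (-0.30), SLC25A30 (-0.42), SLC25A34 (-0.59), SLC25A46 (-0.30) and SLC25A47 (-0.52). Unless the spikes are named, changes below use the deposited values and so are relative to each whole array. The squamous epithelial markers KRT5, KRT14, EPCAM and CDH1 exceeded the no-target controls on all 4 arrays, and among them KRT14 rose by 0.97 and CDH1 fell by 1.26 on the log2 scale. Of the markers of other cell types, the fibroblast genes COL1A1 and PDGFRB, the leukocyte genes CD79A and CD14 and the endothelial genes PECAM1 and VWF also exceeded the controls on all 4 arrays. The leukocyte marker PTPRC, the endothelial marker CDH5 and the fibroblast markers DCN and LUM did so on none. The 4 leukocyte markers summed to 134 to 153 on the mimic arrays and 112 to 117 on the miR-NC arrays, with CD14 the 1 marker of the 4 that passed (0.68). The 5 fibroblast markers, of which COL1A1 passed (-0.47, limma adjusted p = 0.0117), summed to 82.1 to 85.3 on the mimic arrays and 87.3 to 93.2 on the miR-NC arrays, and the 3 endothelial markers to 67.5 to 70.7 on the mimic arrays and 73.8 to 77.8 on the miR-NC arrays. The part of these signals in the results was not tested.

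The carriers that exchange energy currency changed unevenly. SLC25A24, a calcium-regulated carrier that exchanges ATP-Mg for phosphate, read 525 and 543 on the mimic arrays, against 223 and 237 on the miR-NC arrays. Both mimic arrays lay far above both miR-NC arrays. The gene rose 2.32-fold, the largest rise among the carriers tested (log2 change 1.22 ± 0.07, SE, n = 2 per group, limma adjusted p = 1.56e-07). It is measured by 1 other probe set, which did not exceed the no-target controls. Its relative SLC25A25 read 79.7 and 72.5 on the mimic arrays, against 86.7 and 93.4 on the miR-NC arrays, and did not pass (-0.24, limma adjusted p = 0.0643). SLC25A25 passed without control replicate 1 (-0.30), after a further quantile normalization (-0.29, limma adjusted p = 0.0291) and with the poly(A) spikes (-0.58). The third of these carriers, SLC25A23, gave values that turned with the probe set. Its brightest probe set read 83.2 and 85.3 on the mimic arrays, against 70.8 and 63.3 on the miR-NC arrays, a change of 0.33 ± 0.10 (limma adjusted p = 0.0193). Both other probe sets above the controls were lower in the mimic group, at -1.37 and -0.51, each past the threshold when every probe set was tested on its own. The mean of all its probe sets gave -0.52, so no direction is given for SLC25A23. The brightest probe set also missed the threshold without mimic replicate 1 (0.35, adjusted p = 0.0988), without mimic replicate 2 (0.31, adjusted p = 0.136) and without control replicate 2 (0.25, adjusted p = 0.0708).

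The ADP/ATP carriers, which exchange matrix ATP for cytosolic ADP, moved in opposite directions by small amounts. SLC25A4, the form best known from heart and muscle, read 163 and 186 on the mimic arrays, against 120.4 and 131 on the miR-NC arrays, a rise of 0.47 ± 0.09 (log2, limma adjusted p = 0.00158). SLC25A5, the form of dividing cells, read 8587 and 8288 on the mimic arrays, against 9385 and 9567 on the miR-NC arrays. It fell by 0.17 ± 0.04 (SE) on the log2 scale, with a limma adjusted p = 0.00210, and missed the threshold without mimic replicate 2 (-0.14, adjusted p = 0.0665) and without the trend in the variance (adjusted p = 0.0907). The 1 other probe set of each gene passed in the same direction, at 0.70 for SLC25A4 and -0.17 for SLC25A5. With the poly(A) spikes SLC25A4 no longer passed (0.13). SLC25A31, the testis form, was not tested.

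SLC25A3 brings phosphate, and in part copper, into the matrix. It read 8507 and 7985 on the mimic arrays, against 6311 and 6306 on the miR-NC arrays, and rose by 0.39 ± 0.04 on the log2 scale (limma adjusted p = 1.22e-05). All 5 of its other probe sets rose too, at 0.34, 0.47, 0.58, 0.88 and 0.91. With the poly(A) spikes the brightest probe set was at 0.05 and did not pass.

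Among the 9 nucleotide and cofactor carriers, 4 rose (44.4%, against 28.1% of all genes) and 3 fell (33.3%, against 26.9% of all genes). SLC25A51, which brings NAD into the matrix, read 100.1 and 106 on the mimic arrays, against 41.6 and 48.7 on the miR-NC arrays. It rose 2.29-fold (log2 change 1.20 ± 0.11, limma adjusted p = 6.44e-06). SLC25A52, a close relative of SLC25A51, read 77.7 and 83.6 on the mimic arrays, against 36.8 and 41.3 on the miR-NC arrays, a 2.07-fold rise (1.05 ± 0.11, limma adjusted p = 1.74e-05). For both genes the mimic arrays lay above the miR-NC arrays with no overlap. Each has only 1 probe set, of the array maker's class for probes that can also bind other transcripts, so both signals are uncertain. Whether these 2 of the 4 rises are separate signals was not tested.

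The windows around the starts of these 2 genes are shown because they make the likeness visible. Each window runs from 250 bases before to 50 bases after the annotated start in RefSeq (GRCh38.p14), and capitals mark the stretch of 101 bases that aligned between them, with 86 identical bases (85.1%) and no gaps. The SLC25A51 window is chr9:37904078-37904377 and the SLC25A52 window chr18:31760831-31761130, both on the minus strand.
SLC25A51: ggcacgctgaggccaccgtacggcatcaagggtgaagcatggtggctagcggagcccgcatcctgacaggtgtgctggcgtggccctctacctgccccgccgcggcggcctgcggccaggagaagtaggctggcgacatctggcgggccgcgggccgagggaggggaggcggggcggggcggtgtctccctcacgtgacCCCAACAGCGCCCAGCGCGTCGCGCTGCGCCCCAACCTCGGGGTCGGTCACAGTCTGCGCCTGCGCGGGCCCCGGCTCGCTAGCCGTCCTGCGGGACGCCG
SLC25A52: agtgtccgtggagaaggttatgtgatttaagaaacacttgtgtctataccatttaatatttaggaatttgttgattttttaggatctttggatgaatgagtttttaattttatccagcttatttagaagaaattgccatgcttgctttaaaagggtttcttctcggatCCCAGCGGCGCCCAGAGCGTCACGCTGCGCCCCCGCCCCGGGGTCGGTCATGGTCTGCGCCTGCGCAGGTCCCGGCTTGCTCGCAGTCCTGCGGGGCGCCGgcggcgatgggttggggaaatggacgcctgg
The aligned stretch reaches the end of the SLC25A51 window. Probe sequences were not used here.

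The remaining cofactor carriers changed less. SLC25A16, whose substrate is not settled, read 46.2 and 40.5 on the mimic arrays, against 26.2 and 27.4 on the miR-NC arrays, and rose by 0.69 ± 0.13 (log2, limma adjusted p = 7.71e-04). Both of its other probe sets also rose, at 0.66 and 0.86. With the poly(A) spikes SLC25A16 missed the threshold (0.35, limma adjusted p = 0.0830). SLC25A33 and SLC25A36 both carry pyrimidine nucleotides, and they moved apart. SLC25A33 rose by 0.37 ± 0.10 on the log2 scale, with 179 and 173 on the mimic arrays against 125 and 149.7 on the miR-NC arrays. SLC25A36 read 471 and 475 on the mimic arrays, against 706 and 799 on the miR-NC arrays, and fell 1.59-fold (-0.67 ± 0.07, limma adjusted p = 1.20e-05). Its 2 other probe sets fell as well, at -0.90 and -0.39. SLC25A33 missed the threshold without mimic replicate 1 (0.34, adjusted p = 0.109), without mimic replicate 2 (0.39, adjusted p = 0.0760) and with the poly(A) spikes (0.03).

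SLC25A26, which brings S-adenosylmethionine into the matrix, fell by 0.43 ± 0.07 on the log2 scale, and its second probe set gave -0.42. SLC25A42, a carrier of coenzyme A, was at -0.39 ± 0.11 (limma adjusted p = 0.0106), and missed the threshold without mimic replicate 1 (-0.42, adjusted p = 0.0585) and without mimic replicate 2 (-0.36, adjusted p = 0.0935). Its 2 other probe sets did not exceed the no-target controls on any array. SLC25A32, which carries flavin and folate, read 481 and 465 on the mimic arrays, against 460 and 367 on the miR-NC arrays, and did not pass (0.20 ± 0.09, limma adjusted p = 0.0942). Without control replicate 1 it passed at 0.37. The peroxisomal SLC25A17 did not pass either, at 0.01 with a 95% interval of -0.19 to 0.22.

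Of the 4 di- and tricarboxylate carriers 1, SLC25A1, passed the threshold (25%, against 55.0% of all genes). SLC25A1 exports citrate, from which the cytosol makes acetyl-CoA for lipid synthesis. It read 493 and 476 on the mimic arrays, against 726 and 742 on the miR-NC arrays, and fell 1.51-fold (-0.60 ± 0.06, SE, limma adjusted p = 7.55e-06). Of its 3 other probe sets, 2 passed in the same direction at -0.55 and -0.51. The last, at -0.30, did not pass, and it exceeded the no-target controls on only 2 arrays. It is the only one outside the classes that can bind other transcripts, so SLC25A1 has no well-measured probe set without those classes. The dicarboxylate carrier SLC25A10 was at -0.14 (95% interval -0.36 to 0.08), and the oxoglutarate carrier SLC25A11, part of the malate-aspartate shuttle, at 0.01 (-0.18 to 0.20). SLC25A21, which carries oxoadipate, exceeded the controls on 2 arrays only and was at -0.07 (-0.59 to 0.45). Its 2 miR-NC arrays read 10.9 and 19.7, and its sign turned with the one left out, at -0.50 without control replicate 1 (adjusted p = 0.0224) and 0.36 without control replicate 2 (adjusted p = 0.0983). ACLY, the cytosolic enzyme that cleaves citrate, read 2542 and 2597 on the mimic arrays, against 3079 and 3299 on the miR-NC arrays, and fell by 0.31 ± 0.05 (log2, limma adjusted p = 1.99e-04).

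Amino acid and acylcarnitine carriers held the largest fall. SLC25A13, known as citrin, exports aspartate in exchange for glutamate and feeds the malate-aspartate shuttle, which moves reducing equivalents of cytosolic NADH into the matrix. It read 177 and 160.4 on the mimic arrays, against 436 and 395 on the miR-NC arrays. Both mimic arrays lay below both miR-NC arrays, and the gene fell 2.46-fold (-1.30 ± 0.08, SE, limma adjusted p = 3.44e-07). Its 2 other probe sets fell too, at -1.23 and -0.92. SLC25A12, or aralar, carries the same substrates. It read 71.0 and 69.3 on the mimic arrays, against 67.0 and 83.3 on the miR-NC arrays, so the groups overlapped (-0.09 ± 0.12, 95% interval -0.36 to 0.18). A dimmer SLC25A12 probe set, above the controls on 3 arrays, passed on its own at -0.57.

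The start windows of SLC25A24 and SLC25A13 are shown because these genes had the largest rise and the largest fall among the carriers. They run over the same span of bases around the start in RefSeq (GRCh38.p14), at chr1:108200294-108200593 and chr7:96322049-96322348, both on the minus strand, and the SLC25A24 window is the first of 2 listed. Capitals mark any match on either strand to the E-box CACGTG. They also mark matches to the box with the letters CCAAT. Matches to the GC box, GGGCGG, are in capitals too, and in SLC25A13 the middle run of capitals joins matches to both of these last motifs.
SLC25A24: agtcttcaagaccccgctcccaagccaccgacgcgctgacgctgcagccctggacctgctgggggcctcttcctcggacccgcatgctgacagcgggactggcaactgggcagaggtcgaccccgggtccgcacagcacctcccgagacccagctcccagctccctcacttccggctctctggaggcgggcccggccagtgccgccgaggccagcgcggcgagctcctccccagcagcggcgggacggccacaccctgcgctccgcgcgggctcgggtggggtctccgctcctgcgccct
SLC25A13: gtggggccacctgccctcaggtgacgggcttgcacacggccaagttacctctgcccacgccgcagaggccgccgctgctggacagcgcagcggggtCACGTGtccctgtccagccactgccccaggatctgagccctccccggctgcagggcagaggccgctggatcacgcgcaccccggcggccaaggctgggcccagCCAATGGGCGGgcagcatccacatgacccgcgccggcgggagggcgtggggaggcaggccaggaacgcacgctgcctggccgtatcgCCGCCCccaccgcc
No such letters occurred in the SLC25A24 window. Over the 35116 windows of all genes, CACGTG occurred in 7.26%, CCAAT in 34.6% and GGGCGG in 45.0%. Among the 49 windows listed for 39 of the carriers, CACGTG occurred in 18.4%, CCAAT in 42.9% and GGGCGG in 65.3%. These matches describe the sequence alone.

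Enzymes of the malate-aspartate shuttle were read beside citrin. Cytosolic malate dehydrogenase (MDH1) read 3694 and 3865 on the mimic arrays, against 3041 and 3266 on the miR-NC arrays, a rise of 0.26 ± 0.05. Cytosolic aspartate aminotransferase (GOT1) rose by 0.32 ± 0.07, while the mitochondrial form GOT2 was at -0.04 and did not pass. Of the 4 other GOT2 probe sets above the no-target controls, 1 passed as higher in the mimic group. Mitochondrial malate dehydrogenase (MDH2) fell by 0.19 ± 0.04 on the log2 scale. With the poly(A) spikes MDH1 and GOT1 were at -0.08 and -0.02, so the direction of these 2 small rises depends on the scaling. On that scale GOT2 passed as lower (-0.38, limma adjusted p = 0.00195), MDH2 was at -0.53 and SLC25A13 at -1.64. GPD2, the mitochondrial enzyme of the other NADH shuttle, rose by 0.67 ± 0.08, and its cytosolic counterpart GPD1 fell by 0.41 ± 0.13 on the log2 scale (limma adjusted p = 0.0231). GPD1 was dim, at 18.1 and 19.9 on the mimic arrays, against 25.7 and 24.9 on the miR-NC arrays. These values lie near the no-target controls (highest 16.8), and no other GPD1 probe set exceeded those controls.

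Of the 8 tested amino acid and acylcarnitine carriers 3 rose and 4 fell, so 87.5% were called, against 55.0% of all genes. Those that rose were SLC25A15, SLC25A29 and SLC25A20. SLC25A15, which exchanges ornithine and citrulline, read 298 and 307 on the mimic arrays, against 188 and 193 on the miR-NC arrays, a 1.59-fold rise (0.67 ± 0.07, limma adjusted p = 1.63e-05), with its 2 other probe sets at 0.95 and 0.94. OAT, the matrix enzyme that breaks down ornithine, rose by 0.38 ± 0.05, and did not pass with the poly(A) spikes (0.04). The only OAT probe set is of a class that can bind other transcripts. SLC25A29, a carrier of basic amino acids, read 98.7 and 91.6 on the mimic arrays, against 62.5 and 65.9 on the miR-NC arrays, a rise of 0.57 ± 0.10 (limma adjusted p = 6.37e-04). It did not pass with the poly(A) spikes (0.23), nor through its other probe set (0.39), which exceeded the no-target controls on 1 array.

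SLC25A20, which brings acylcarnitines into the matrix for fatty acid oxidation, read 62.7 and 54.1 on the mimic arrays, against 36.4 and 38.0 on the miR-NC arrays. It rose by 0.65 ± 0.12 (log2, limma adjusted p = 8.64e-04). It did not pass with the poly(A) spikes (0.31, limma adjusted p = 0.102). The acyltransferase that makes acylcarnitines, CPT1A, rose by 1.46 ± 0.10, with 198 and 176 on the mimic arrays, against 67.3 and 69.0 on the miR-NC arrays. CPT2, which acts on the matrix side, fell by 0.50 ± 0.08 on the log2 scale.

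Beside SLC25A13, the members of this role that fell were SLC25A22, SLC25A44 and SLC25A38. SLC25A22, a glutamate carrier, read 187 and 189.8 on the mimic arrays, against 294 and 299 on the miR-NC arrays, a 1.58-fold fall (-0.66 ± 0.07, limma adjusted p = 1.79e-05). GLUD1, which oxidises glutamate in the matrix, fell by 0.20 ± 0.04 on the log2 scale. SLC25A44, a carrier of branched-chain amino acids, read 42.3 and 48.5 on the mimic arrays, against 62.3 and 67.9 on the miR-NC arrays, and fell by 0.52 ± 0.12 on the log2 scale (limma adjusted p = 0.00310). Without mimic replicate 1 it missed the threshold (-0.42, adjusted p = 0.0599). SLC25A38, which brings glycine into the matrix for heme synthesis, read 237 and 252 on the mimic arrays, against 286 and 290.4 on the miR-NC arrays. Its change was -0.24 ± 0.07 (limma adjusted p = 0.0154), and without mimic replicate 1 it missed the threshold (-0.20, adjusted p = 0.1245).

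**Figure D2:**
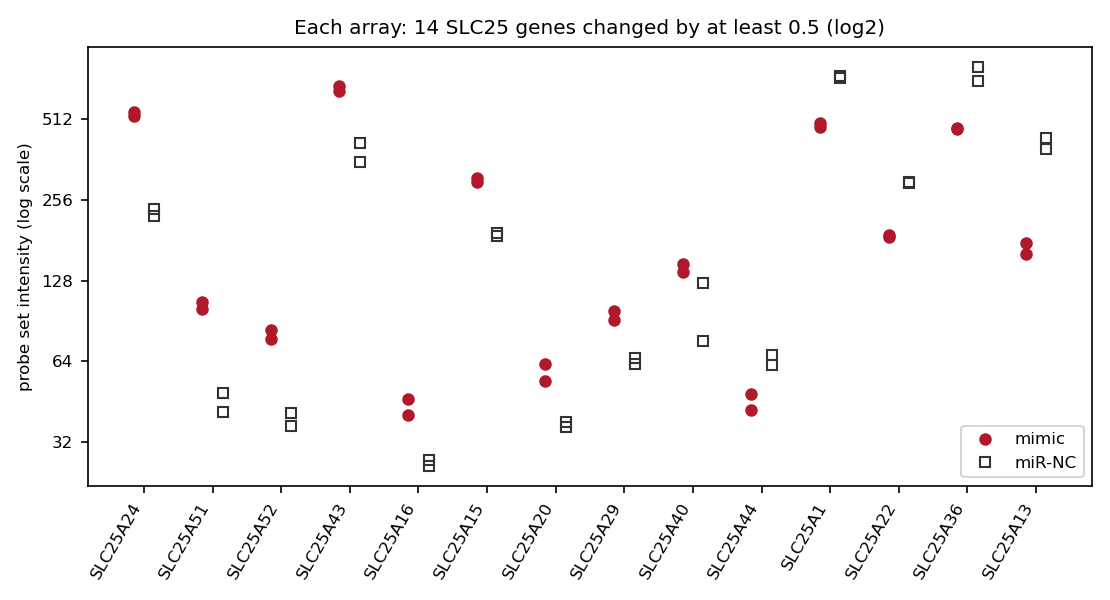
The probe set intensity on each array, on a log scale, of the 14 SLC25 genes past the threshold with a change of at least 0.5 (log2), with filled circles for the 2 mimic arrays and open squares for the 2 miR-NC arrays. The 9 genes on the left, from SLC25A24 to SLC25A40, have both mimic arrays above both miR-NC arrays, and the 5 on the right, from SLC25A44 to SLC25A13, below them.

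Of the 4 iron and glutathione carriers, 3 rose on the deposited scale (75.0%, against 28.1% of all genes), and with the poly(A) spikes none of these 3 passed. SLC25A37, or mitoferrin, which brings iron into the matrix, read 136 and 126 on the mimic arrays, against 103.9 and 108 on the miR-NC arrays, a change of 0.31 ± 0.09 (limma adjusted p = 0.0132). Of its 4 other probe sets 3 rose, at 1.02, 0.78 and 0.49. The brightest probe set missed the threshold without mimic replicate 1 (0.25, adjusted p = 0.129) and was at -0.03 with the poly(A) spikes. The second mitoferrin, SLC25A28, was at 0.04 (95% interval -0.14 to 0.21). SLC25A39, which carries glutathione, read 782 and 799 on the mimic arrays, against 682 and 663 on the miR-NC arrays. Its change was 0.23 ± 0.05 (limma adjusted p = 0.00402). Without mimic replicate 2 it missed the threshold (0.22, adjusted p = 0.0563), and with the poly(A) spikes it was at -0.10.

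SLC25A40, the other glutathione carrier, read 148 and 138 on the mimic arrays, against 76.0 and 125 on the miR-NC arrays. Its miR-NC arrays differed more from each other than the second of them did from the mimic arrays. The change of 0.55 ± 0.18 (limma adjusted p = 0.0252) missed the threshold without mimic replicate 1 (0.50, adjusted p = 0.216), without mimic replicate 2 (0.60, adjusted p = 0.153) and without control replicate 1 (0.19, adjusted p = 0.136). Its other probe set was at -0.22 and did not pass, and the mean of both probe sets gave 0.17. With the poly(A) spikes the brightest was at 0.21. FECH and ABCB10, partners of the iron pathway, rose. FECH, ferrochelatase, which puts iron into heme, read 239.5 and 251 on the mimic arrays, against 99.7 and 106 on the miR-NC arrays, a rise of 1.26 ± 0.08. Of its other probe sets, 1 passed in the same and 1 in the opposite direction. ABCB10, an inner membrane transporter that binds mitoferrin in mouse cells, rose by 0.83 ± 0.09. Its only probe set is of a class that can bind other transcripts.

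The relatives of the uncoupling proteins and the members without a settled substrate gave mostly small changes. SLC25A14 read 159.8 and 152 on the mimic arrays, against 195 and 199 on the miR-NC arrays, and fell by 0.34 ± 0.08 on the log2 scale. It missed the threshold without mimic replicate 2 (-0.30, adjusted p = 0.0549). Its other probe set above the controls gave -0.11 and did not pass. SLC25A27 (0.17, 95% interval -0.20 to 0.54) and SLC25A30 (-0.08, -0.32 to 0.17) did not pass. SLC25A43, an orphan member, read 648 and 676 on the mimic arrays, against 355 and 416 on the miR-NC arrays, a 1.72-fold rise (0.79 ± 0.08, limma adjusted p = 9.59e-06). Its second probe set was at 0.31 and did not pass.

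Of the other orphan members, SLC25A45, SLC25A35 and SLC25A53 fell, at -0.48 ± 0.12, -0.47 ± 0.12 and -0.40 ± 0.14 (SE). Each of the 3 lost its call without mimic replicate 2, at -0.49, -0.32 and -0.49 on the log2 scale. SLC25A45 and SLC25A53 lost it without mimic replicate 1 as well (-0.46 and -0.31), and SLC25A53 without control replicate 2 (-0.32). SLC25A53 also missed the threshold after a further quantile normalization (-0.35). SLC25A34 was at -0.25 (95% interval -0.62 to 0.12) and depended on which miR-NC array was left out, at -0.04 without control replicate 1 (adjusted p = 0.860) and -0.46 without control replicate 2 (adjusted p = 0.0285). SLC25A47 was at -0.19 (95% interval -0.46 to 0.09) and SLC25A48 at 0.02 (-0.35 to 0.39). SLC25A46, which lies in the outer membrane and takes part in mitochondrial fission, read 479 and 486 on the mimic arrays, against 471 and 470.2 on the miR-NC arrays, a change of 0.04. A dimmer probe set of SLC25A46 rose by 0.75 ± 0.18 when every probe set was tested on its own.

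Agreement between probe sets was checked for all changed carriers. Tested singly, 57 of the 95 carrier probe sets above the filter passed, where 51.3% of all probe sets with 1 gene symbol did, and 30 were higher and 27 lower in the mimic group. Of the 28 changed carriers, 20 had another probe set above the no-target controls. For 9 of these 20 every other such probe set passed in the same direction, and for 14 at least 1 did with none opposite. For 5 none of the others passed, and for 1, SLC25A23, the others passed in the opposite direction. The remaining 8 changed carriers rest on 1 measurable probe set.

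**Figure D3:**
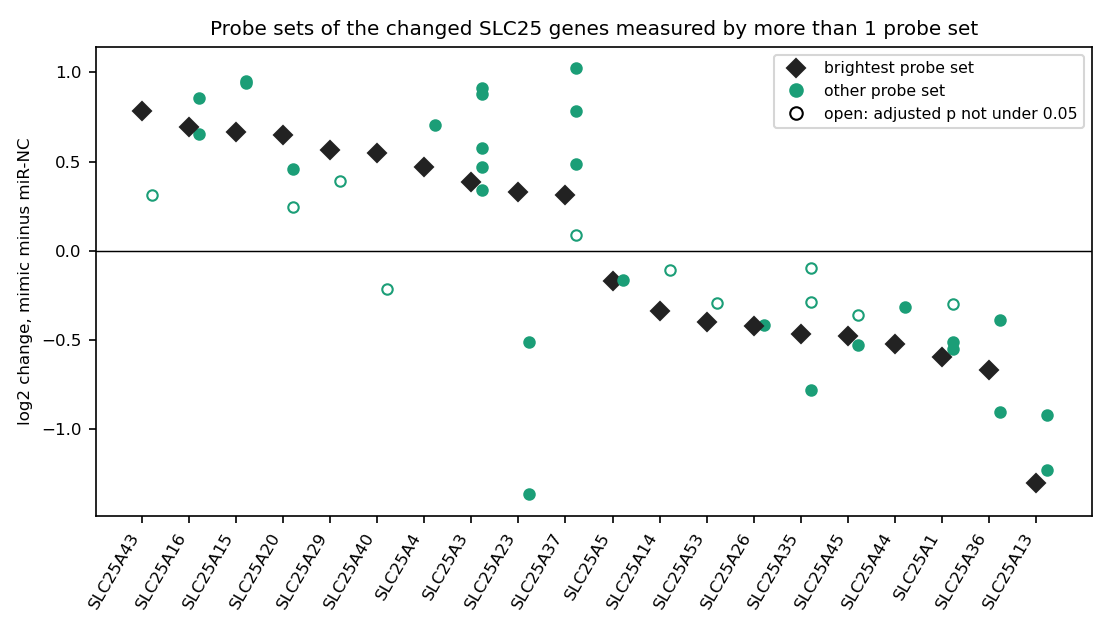
The log2 change (mimic minus miR-NC) of each probe set above the no-target controls is plotted for the 20 changed SLC25 genes with more than 1 such probe set. Black diamonds are the brightest probe set, green circles the others, and open symbols did not pass; SLC25A23 and SLC25A40 have probe sets on both sides of 0, and only those of SLC25A23 pass on both sides.

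Genes that work beside the carriers were read from a list of 53 with a probe set, of which 52 were tested. In the mimic group 22 were higher and 15 lower, with a median log2 change of 0.09. The share called was 71.2%, against 55.0% of all genes tested. The highest 4 were CPT1A, FECH, TIMM10B and SFXN1, and the lowest 4 SFXN2, OGDH, MCU and CPT2. SFXN1, a serine carrier of the inner membrane, rose by 1.07 ± 0.07, and its relative SFXN2 fell by 1.03 ± 0.13 on the log2 scale. OGDH, of the citric acid cycle, and MCU, the pore of the calcium uniporter, both fell, at -0.57 ± 0.08 and -0.56 ± 0.07 (SE). Of the 3 other OGDH probe sets above the no-target controls, 2 passed as lower. The 1 other such MCU probe set did not pass in either direction.

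Of 13 genes of the import route of the carriers, 5 rose and 1 fell, so 46.2% were called, against 55.0% of all genes. TIMM13 and TOMM22, which were among the 5, did not pass with the poly(A) spikes (-0.02 and -0.07). On that scale TIMM10B, TOMM70 and TIMM29 still passed as higher. AGK (-0.35), TIMM9 (-0.29), TIMM10 (-0.25), TOMM20 (-0.43) and TOMM40 (-0.46), not called on the deposited scale, passed as lower with the spikes. So did 7818 of all genes, and the direction of this list depends on the scaling. The 1 other TIMM13 probe set, which exceeded the no-target controls, passed as lower, so the direction of TIMM13 depends on the probe set. TIMM10B, a small chaperone of the intermembrane space, read 413 and 417 on the mimic arrays, against 173 and 187 on the miR-NC arrays, and rose 2.31-fold (1.21 ± 0.07, limma adjusted p = 2.60e-07). TOMM70, the outer membrane receptor for carrier precursors, read 939 and 970.3 on the mimic arrays, against 492 and 485 on the miR-NC arrays, a rise of 0.97 ± 0.06. TIMM29, a subunit of the TIM22 complex, rose by 0.64 ± 0.06, while the channel TIMM22 itself was at 0.10 and did not pass. The gene that fell was TIMM8B, at -0.48 ± 0.05. Among the outer membrane channels through which carrier substrates pass, VDAC1 rose by 1.04 ± 0.06. VDAC1 and TIMM29 each have only 1 probe set, of a class that can bind other transcripts. VDAC2 was at 0.01 and did not pass, but with the poly(A) spikes it passed as lower (-0.33, limma adjusted p = 0.0141). VDAC3 fell by 0.35 ± 0.04 on the log2 scale. The 2 other VDAC3 probe sets above the no-target controls did not pass in either direction. The subunits of the pyruvate carrier, MPC1 and MPC2, fell by 0.31 ± 0.09 and 0.40 ± 0.06 on the log2 scale.

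**Figure D4:**
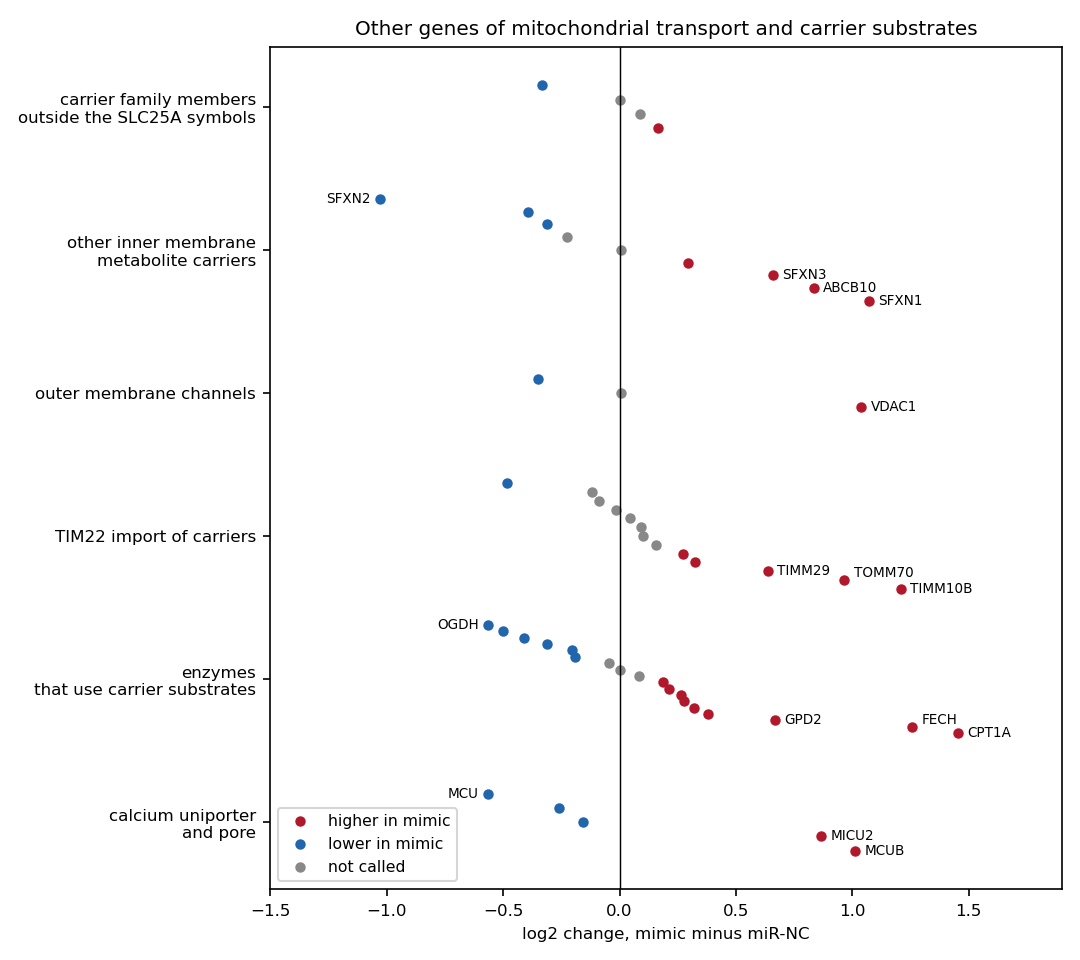
The log2 change (mimic minus miR-NC) of the 52 tested partner genes is plotted in 6 groups, with red for genes called higher, blue for lower and grey for genes that did not pass. The 22 higher genes reach 1.46 (CPT1A) and the 15 lower ones -1.03 (SFXN2).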

How the data were processed

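Total RNA of SCC-9 cells was labelled with biotin, from 2 ug per the labels' protocols, and measured on 4 arrays. The authors deposited probe set intensities, and the submitters' processing notes list RMA. Since these intensities run from 2.09 to 17329, they were read as linear RMA values and converted to log2. The RMA version and any earlier filter are not stated. RMA brings the arrays close to 1 distribution (medians here of 30.6 to 31.3), so a shift of all transcripts cannot be seen. The match was not exact, and a further quantile normalization gave 3658 genes higher and 4061 lower. Of 49395 probe sets, 102 are controls, and 44988 have 1 gene symbol, 1832 several and 2473 none here in the platform annotation; checking them against the GRCh38.p14 gene table left every symbol as it was. Each gene took its brightest probe set by mean log2. The test was limma (version 3.58.1, R 4.3.3), with a mean-variance trend and 2 residual and 8.35 prior degrees of freedom. It compared mimic minus miR-NC over all genes past a filter at the 30th percentile of intensity, two-sided, with Benjamini-Hochberg adjustment and a threshold of 0.05. Errors of log2 changes are SEs, with a median of 0.0952, and the number of arrays limits the precision. The test was tried on simulated data. Alternatives were other normalizations, filters, choices of probe set, estimates of the spread, a replicate block, other thresholds and leaving out each array. Named carriers with values on each array were those past the threshold with a change of at least 0.5, and the brightest of each role; of the partner genes, the 4 highest and 4 lowest, with others that share a carrier's substrate. Values of carriers beyond this rule, and of the other partner genes, were added after they were seen. The members and lists were chosen with earlier results of these data known. Probe sets with several symbols were not used here. Alignment used Biopython 1.88 with scores of 1 for a match, -2 for a mismatch, -4 to open and -1 to extend a gap. Genes that the annotation does not list are not reported here.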

Additional observations from a re-analysis of the deposited data

How the results depend on the processing

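Of the 28 changed carriers, 9 kept their direction and stayed past the threshold under each of the 16 settings other than thresholds that gave them a value: SLC25A13, SLC25A15, SLC25A22, SLC25A24, SLC25A26, SLC25A36, SLC25A43, SLC25A51 and SLC25A52. With the poly(A) spikes 5 carriers were higher and 23 lower, 1573 of all genes higher and 7818 lower, and 12 partner genes higher and 25 lower. On that scale 10 carriers not called on the deposited scale passed as lower, of which SLC25A11 (-0.33), SLC25A17 (-0.33), SLC25A28 (-0.30) and SLC25A46 (-0.30) changed sign, and the called SLC25A23 (-0.00802), SLC25A37 (-0.0286) and SLC25A39 (-0.10) changed sign without passing; the mean of all probe sets gave -0.52 for SLC25A23. Without probe sets that can bind other transcripts, 9 of 34 tested carriers were higher, SLC25A46 (0.75) among them, and 3379 of 12585 genes. In that setting 12 carriers and 3242 of all genes were lower. The 6 carriers called as higher that had no tested value there were SLC25A15, SLC25A24, SLC25A33, SLC25A39, SLC25A51 and SLC25A52. SLC25A1 and SLC25A29 did not pass there, through probe sets above the no-target controls on 2 arrays and 1 array. The mean of all probe sets, which for SLC25A14 and SLC25A42 includes probe sets at the level of those controls, ended both calls. With a change of at least 1.5-fold also asked for, 7 carriers were higher and 4 lower (11 in all), 1731 of all genes higher and 1417 lower (3148 in all), and 12 partner genes higher and 1 lower (13 in all). Leaving out each array gave 11 to 15 carriers higher, 7 to 15 lower and 18 to 30 in all, 2509 to 4041 lower genes over all genes, and the lowest counts of lower carriers were 7 without mimic replicate 2 and 8 without mimic replicate 1. In these fits the lone array of a group is assumed to vary like the other group. Leaving out 1 array ended the call of 13 carriers. Same-numbered arrays share only a number in the labels (correlation of their deviations 0.08). The fit with the replicate number as a block called 16 carriers higher and 13 lower, and 4132 of all genes higher and 4121 lower. Among the carriers it changed the call of SLC25A32 only (0.20, limma adjusted p = 0.0214). The other counts, apart from those of fits without 1 array, stayed within 1.5 times. Carriers near the no-target controls (highest 16.8), such as SLC25A21, SLC25A48 and SLC25A53, have little signal to show a change.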
